A study of Mus musculus with 188 samples.

Results

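Interferon-stimulated genes were followed in mouse brain slice cultures exposed to heme or hemoglobin, with or without the plasma proteins that bind them. The set holds 39 genes named by symbol, from the RNA sensors Ifih1 and Ddx58 to the effectors Isg15, Ifit1, Mx1 and Bst2. Each of the 39 had 1 row in every table, among 25655 genes listed in batch 1 and 25528 in batches 2 and 3. Members were taken by symbol, with no threshold on a measured value.

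The cultures were organotypic coronal slices of adult wildtype C57BL/6J brain, kept 2 to a membrane insert and treated on day 7 of culture. In batch 1, slices received heme-albumin (heme carried by albumin) at 12.5, 50, 200 or 400 µM, heme bound to hemopexin (hemeHpx) at 200 µM, or no addition, and were taken at 24 h with 10 libraries per group. In batches 2 and 3, slices received free hemoglobin (Hb) at 200 or 400 µM, the hemoglobin-haptoglobin complex (HbHp) at 200 or 400 µM, haptoglobin alone (Hp) at 400 µM, or no addition, for 24 or 48 h. Those groups held 10 Hb libraries at each dose and time, 8 and 8 of HbHp 200 µM, 4 and 5 of HbHp 400 µM, 12 and 11 of Hp, and 10 and 9 controls at 24 and 48 h. All treated slices shared the genotype of the controls, and a slice is a cut tissue without blood supply in which only resident and trapped cells remain. The study names a loss of microglia in adult cultures as a limit of this model. For the hemeHpx libraries the titles say haptoglobin, while the treatment label, the library name and the design text say hemopexin, which was followed here.

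Sequencing depth, as the sum of counts in a library, was 11038484 to 44199060 in batch 1 and 15587938 to 54174784 in batches 2 and 3. A further 21 libraries had labels that contradict each other on agent or time and entered no comparison. Library names in batches 2 and 3 begin with E1 or E2, which the labels do not explain, and these are called experiments E1 and E2 here (53 and 54 libraries). All HbHp libraries belong to batch 3 and to E2. The labels do not say which libraries come from different mice, so a p-value measures only the spread between libraries, part of which may be technical. All markers on the neuron (9 genes), astrocyte (7), oligodendrocyte (7), endothelial (8) and microglia (12) lists passed the filter on low counts, and the microglia markers summed to between 558 and 3506 CPM (counts scaled to library size) in batch 1.

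Type I interferons signal through the receptor pair IFNAR1 and IFNAR2 and the kinases JAK1 and TYK2, which activate STAT2. With IRF9 it is part of the complex ISGF3, which binds the interferon-stimulated response element in the promoters of genes that block viral entry, translation and replication or that raise the cell's ability to sense foreign nucleic acid. In the brain this program is run by microglia, astrocytes, endothelial cells and neurons, is kept at a low tonic level without infection, and is known to rise in subsets of microglia during aging, injury and amyloid disease.

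Promoters are shown first, since members are known to be controlled through the response element. RefSeq promoters (GRCm38.p6, from 250 bases before to 50 bases after the start site) could be matched by symbol for 28 of the 39 members. The core of the response element was searched on both strands as GAAA, any 2 bases and GAAA again, overlapping matches included. It was present in 15 of the 28 members with a promoter (53.6%), against 1079 of all 27025 genes with a promoter (3.99%). Members with no match in this window were Irf7, Irf9, Trim25, Ifit2, Oasl1, Oasl2, Cmpk2, Isg20, Dtx3l, Ifi44, Ifi35, Xaf1 and Lgals3bp. No promoter was matched for Dhx58, Zbp1, Usp18, Oas2, Mx1, Mx2, Rtp4, Parp9, Parp14, Ifi27 and Ifi27l2a. Later results turn on genes of both kinds. The 8 stretches below, each 60 bases of the gene's own strand, were chosen among the members that hold a match. Matches are in capitals and appear as TTTC, any 2 bases and TTTC where they lie on the opposite strand. The regions are chr4:156200850-156200909 for Isg15 (minus strand), chr19:34640779-34640838 for Ifit1 (plus), chr19:34583382-34583441 for Ifit3 (plus), chr5:120907526-120907585 for Oas1a (minus), chr10:128270251-128270310 for Stat2 (plus), chr8:71537562-71537621 for Bst2 (minus), chr7:104465195-104465254 for Trim30a (minus) and chr3:142559980-142560039 for Gbp3 (plus).
Isg15: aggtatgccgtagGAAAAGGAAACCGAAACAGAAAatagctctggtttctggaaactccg
Ifit1: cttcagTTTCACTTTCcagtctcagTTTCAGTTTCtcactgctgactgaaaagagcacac
Ifit3: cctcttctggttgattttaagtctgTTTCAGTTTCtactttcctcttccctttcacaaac
Oas1a: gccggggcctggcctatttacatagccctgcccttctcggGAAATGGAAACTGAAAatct
Stat2: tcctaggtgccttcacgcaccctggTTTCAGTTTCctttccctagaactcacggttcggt
Bst2: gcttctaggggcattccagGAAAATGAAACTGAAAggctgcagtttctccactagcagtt
Trim30a: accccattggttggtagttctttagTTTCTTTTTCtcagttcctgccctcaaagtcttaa
Gbp3: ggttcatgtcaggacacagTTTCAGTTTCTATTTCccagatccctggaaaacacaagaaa

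Isg15 carried 3 overlapping matches and Ifit1 carried 2 separate ones. The Ifit3 stretch was found letter for letter in the promoter of Ifit3b, its neighbor on chromosome 19, and 31.7% of the 100-base windows of Ifit3 exons also occur in Ifit3b, so the counts of this pair can be mixed. The same holds for Oas1a, of whose windows 40.9% occur in Oas1g. Exons of Parp9 and Dtx3l overlap on opposite strands. Those of Dhx58, Eif2ak2, Irf7, Usp18, Oasl1, Gbp2 and Ifi35 overlap other genes in the same way. The strand setting of the counting is not given in the sources used here, so reads in these overlaps cannot be told apart. Exons of Irf9, Rtp4 and Parp14 overlap those of Rnf31, Gm45338 and Gm49730 on the same strand, which limits their counts as well.

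In untreated slices the members spanned a wide range of levels. Scaled by exonic length, Lgals3bp (a secreted scavenger-receptor-domain glycoprotein) had the highest median in batch 1 controls, 28.8 CPM per kilobase (lowest 17.9, highest 62.6, n = 10). Ifi27 (an inner mitochondrial membrane protein), Bst2 (tetherin, which holds budding virions on the cell), Gbp2 (a guanylate-binding GTPase) and Trim25 (the E3 ligase that ubiquitinates RIG-I) followed with medians of 24.4, 22.8, 18.7 and 9.05 CPM per kilobase. The ranges of Lgals3bp, Ifi27, Bst2 and Gbp2 overlapped. At the other end stood Ifi44, Oas2 and Oas3 with medians of 0.177, 0.0979 and 0.0208 CPM per kilobase. Oas3, a synthetase of the 2′-5′ oligoadenylates that activate RNase L, did not pass the filter on low counts in batch 1, so 38 members were tested there and all 39 in batches 2 and 3. The controls of batches 2 and 3 placed the same 3 genes last at 24 and at 48 h, with Mx1 (a gene of the dynamin-like GTPase family) just above them.

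The interferons themselves were barely counted. Of 21 interferon genes listed (type I, type III and Ifng), none passed the filter in either table. The highest count of any of them in a library was 9 in batch 1 and 13 in batches 2 and 3, and 9 and 7 of the 21 had no count at all. Their receptors were plainly present, with a median of 93.7 CPM for Ifnar1 and 57.1 CPM for Ifnar2 in batch 1 controls. At this depth an interferon transcript confined to few cells would not be detectable.

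Members rose and sank together from library to library. After group means were removed, each gene's log2 CPM was compared across the 60 libraries of batch 1 with the mean of the other members: Pearson's r had a median of 0.82, and 33 of 38 members exceeded 0.5, against 13.6% of the 15497 other genes tested. In batches 2 and 3, with group, batch and experiment removed, the median was 0.69 over the 53 and 54 libraries of E1 and E2 and 34 of 39 members exceeded 0.5, against 5.31% of 16415 other genes. Ifit3 (0.96) and Oasl2 (0.95) were closest to the set in batch 1, and Oasl2 and Irf7 (both 0.89) in batches 2 and 3. Gbp2 stood apart, at -0.43 and 0.14, as did Gbp3, at 0.11 and 0.16. These are descriptions across libraries that share slices, depth and scaling, and not tests. Outside the set, the genes that followed it closely in batch 1 included Oas1g (0.90), Igtp, Ifi47 and Helz2 (0.88 each), and in batches 2 and 3 Iigp1 (0.87) and Irgm2 (0.78), which are themselves interferon-induced. The mean of 12 microglia markers followed it at 0.64 and 0.61, that of 8 endothelial markers at 0.63 and 0.54, and that of 7 astrocyte markers at -0.37 and 0.18. Markers of border-associated macrophages stood at 0.52 and 0.50, of oligodendrocytes at 0.50 and -0.21 and of neurons at 0.30 and 0.01.

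This shared movement came with a wide spread. The members' median biological coefficient of variation was 0.285 in batch 1, against 0.139 over all genes tested, and 0.26 against 0.127 in batches 2 and 3. A few single libraries accounted for the extremes, as the plot of mean levels shows. The mean log2(CPM + 0.5) over the 39 members was 3.90 in control replicate 13, where the median of the 10 batch 1 controls was 3.08. It was 4.05 in replicate 7 at 50 µM heme-albumin (group median 3.03) and 3.97 in hemeHpx replicate 8 (median 3.14). In batches 2 and 3 the highest value was 4.18, in Hp replicate 11 at 48 h, an E2 library, where the group median was 3.2. The lowest libraries of these 4 groups lay between 2.61 and 2.78, so the range within each of them was wider than the gap between any 2 group medians.

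**Figure D1:**
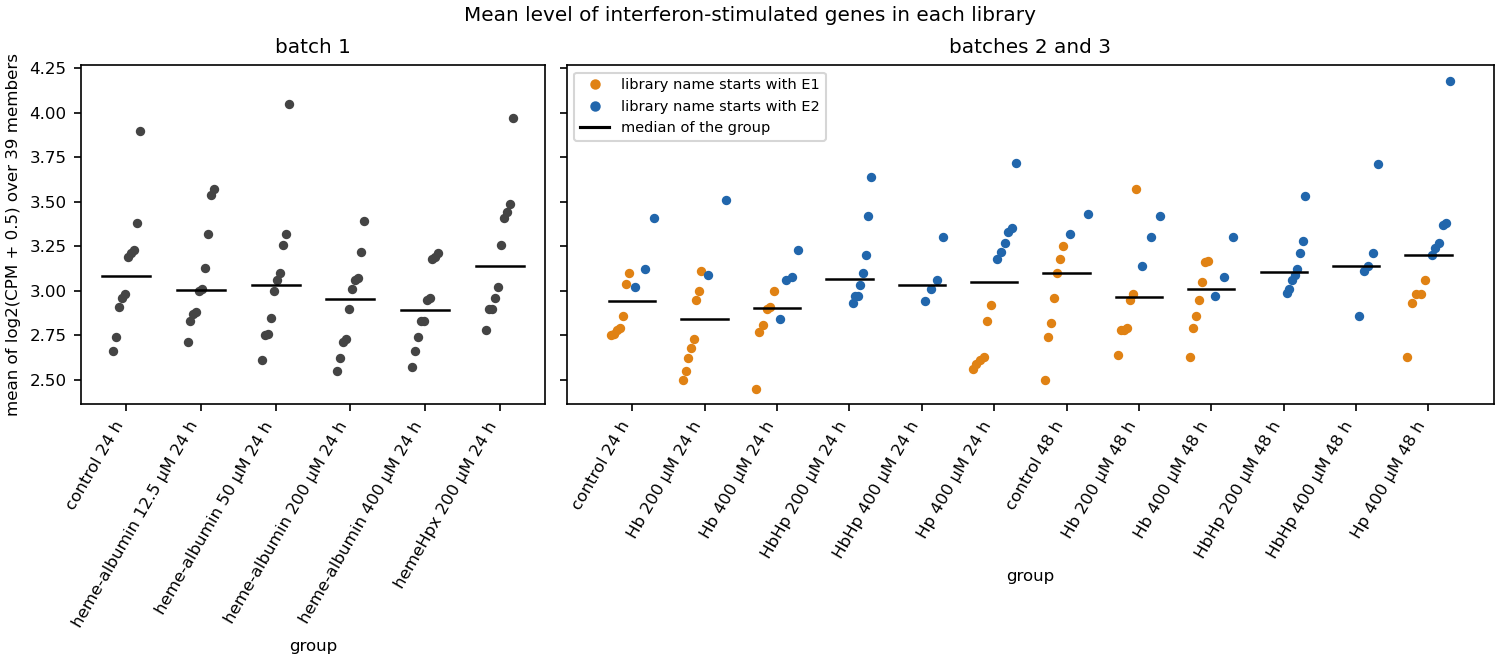
Mean of log2(CPM + 0.5) over the 39 interferon-stimulated genes in each library, by group, with the group median as a bar; batch 1 is on the left and batches 2 and 3 on the right, where E1 libraries are orange and E2 libraries blue. Group medians in batch 1 lay between 2.89 and 3.14, single libraries reached 4.05, and in the Hp groups every E2 library lay above every E1 library.

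Whether heme moved these genes was asked at 4 doses of heme-albumin against the same controls. No member was called at 12.5 or 50 µM, 3 fell at 200 µM, and 7 fell and 1 rose at 400 µM (edgeR's quasi-likelihood test, adjusted p under 0.05 over 15554 genes). The members that fell were sensors, signaling factors and effectors with changes of 0.27 to 0.75 on the log2 scale, and the one that rose was Isg20, an exonuclease that degrades single-stranded RNA.

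At 12.5 µM the share of all genes called was 0.0386% higher and 0.00643% lower, and at 50 µM 0.45% and 0.0129%. The 0 members called stood beside 1 and 0 at an unadjusted p under 0.05, where 7.88% and 11.7% of all genes were, and DESeq2 also called 0 at both doses. The median log2 fold change of the 38 members was -0.05 and -0.06.

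At 200 µM, 3 of 38 members (7.89%) were called lower, close to the 6.6% of all genes called lower, and 0 were called higher, against 6.98%. The median member change was -0.23, against -0.01 over all genes, and 34 of the 38 estimates were negative. At 12.5 and at 50 µM, with 0 calls, 26 of 38 were negative. Members moved together across libraries, so sign counts here and below are not counts of separate observations. Dhx58 encodes LGP2, the RIG-I-like sensor without a signaling domain. Its 10 controls ran from 3.32 CPM (median 5.39) to 10.6 CPM, and its 10 libraries at 200 µM from 2.92 (median 3.91) to 5.00 CPM. The groups overlapped, with the treated libraries crowded at the low end, and Dhx58 fell by 0.60 on the log2 scale (SE 0.185, adjusted p = 0.0214, edgeR). Trim30a, which restrains TLR signaling, ran from 8.27 (median 11.7) to 23.2 CPM in controls and from 5.65 (median 9.01) to 12.4 CPM at 200 µM. It fell by 0.56 (SE 0.19, adjusted p = 0.0377, edgeR). Parp9, which acts with the ubiquitin ligase DTX3L, ran from 22.1 (median 25.5) to 29.6 CPM in controls and from 18.5 (median 21.2) to 23.8 CPM at 200 µM, and it fell by 0.27 (SE 0.0813, adjusted p = 0.0212, edgeR). Of 27 alternatives, Trim30a lost its call in 11, Dhx58 in 2 and Parp9 in 1. The Parp9 groups overlapped only between 22.1 and 23.8 CPM. Leaving out control replicate 13 or control replicate 16 left 1 member called, as did leaving out the 3 libraries with the highest mean levels.

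At 400 µM, 7 of 38 members (18.4%) were called lower, against 14.3% of all genes, and 1 (2.63%) higher, against 14.7%. The share called lower is thus near the background, the share called higher below it. The median member change was -0.27 and 35 of 38 estimates were negative. Cmpk2, a mitochondrial nucleotide kinase encoded head to head with Rsad2, had the smallest adjusted p. Its controls ran from 11.8 (median 13.2) to 20.9 CPM and its 400 µM libraries from 7.04 (median 8.15) to 11.3 CPM. The groups did not overlap, and Cmpk2 fell by 0.75 on the log2 scale (SE 0.138, adjusted p = 2.35e-05, edgeR). Its neighbor Rsad2 (viperin), which carries the response element, was not called.

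Stat2, the ISGF3 subunit that is particular to interferon signaling, ran from 41.6 (median 45.2) to 62.5 CPM in controls and from 31.3 (median 38.9) to 42 CPM at 400 µM. The groups met only at their edges, and Stat2 fell by 0.38 (SE 0.0998, adjusted p = 0.00238, edgeR). Parp9 and its relative Parp14, an ADP-ribosyltransferase, fell by 0.39 (SE 0.0814, adjusted p = 0.000179) and 0.41 (SE 0.126, adjusted p = 0.0109, both edgeR). Their 400 µM libraries ran from 17 (median 19.1) to 22.5 CPM and from 14.3 (median 18.3) to 22.6 CPM, and the Parp14 controls from 18.3 (median 23.4) to 30.4 CPM.

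Gbp3 (a guanylate-binding GTPase) fell from a control range of 23.8 to 31.8 CPM (median 28.7) to a range of 15.5 to 31.1 CPM (median 20.8), a log2 change of -0.40 (SE 0.102, adjusted p = 0.00236, edgeR). Ifit2, which binds foreign RNA and blocks its translation, ran from 22.3 (median 28.7) to 38.7 CPM in controls and from 17.9 (median 20.8) to 29.6 CPM at 400 µM, a log2 change of -0.44 (SE 0.117, adjusted p = 0.00275, edgeR). Trim30a fell by 0.53 (SE 0.19, adjusted p = 0.03, edgeR) and lost its call in 8 of 26 alternatives, without control replicate 13, 16 or 18 or 400 µM replicate 1, 2 or 9 among them, while the other 7 members called at this dose kept theirs in all 26. In all 3 the groups overlapped.

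Isg20 went the other way. Its controls ran from 0.914 (median 1.66) to 2.87 CPM and its 400 µM libraries from 1.40 (median 2.76) to 7.73 CPM, and it rose by 0.87 on the log2 scale (SE 0.231, adjusted p = 0.00305, edgeR). The top value belonged to replicate 9 alone, and the groups overlapped. The ISG15 system (Isg15 and its protease Usp18), both Mx GTPases, the 4 tested OAS family members and both IFI27 family members gave no call at either dose, although Zbp1, Oas2 and Ifi27l2a had estimates as low as those of called genes.

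**Figure D2:**
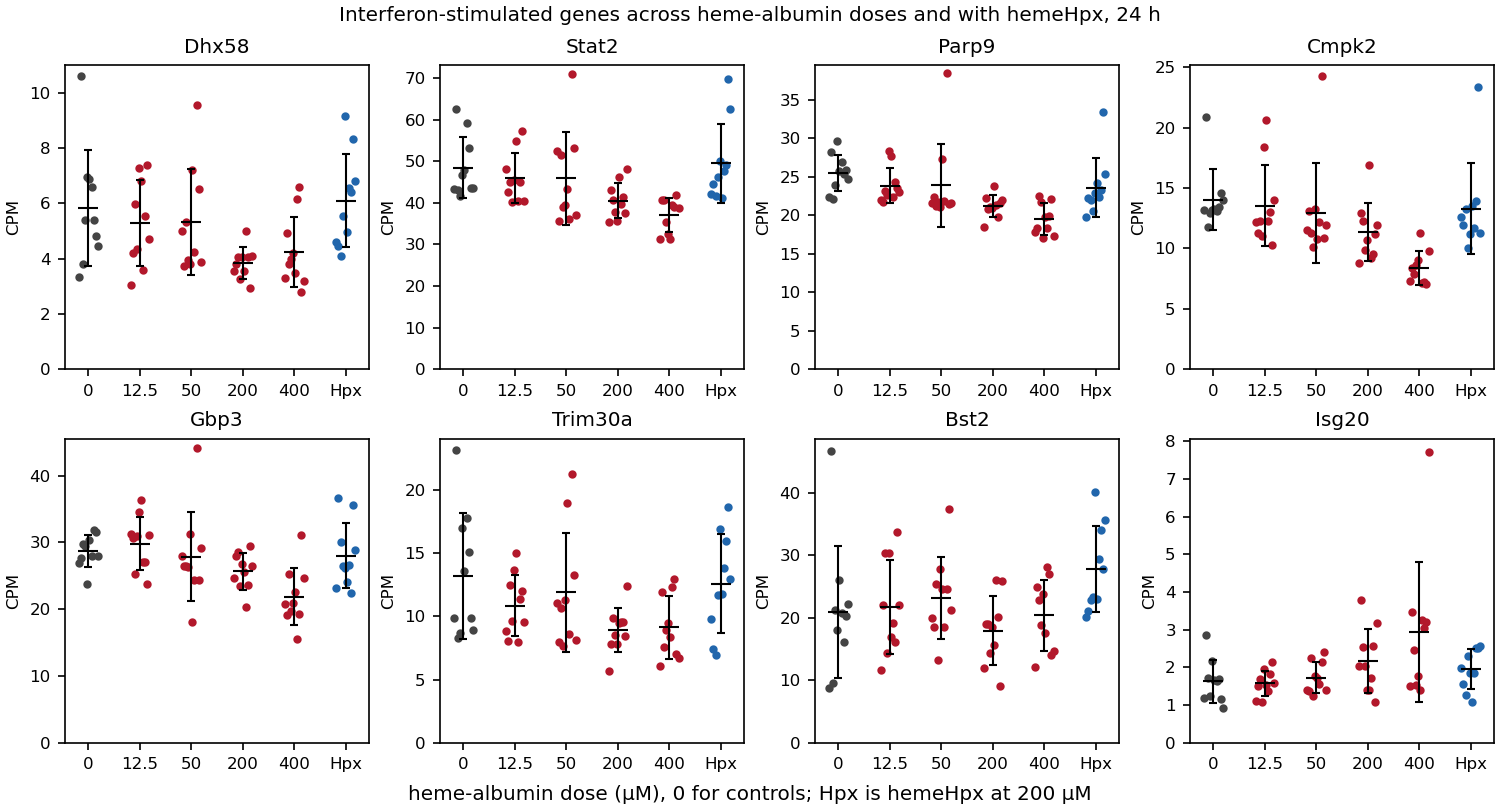
CPM of 8 interferon-stimulated genes in each batch 1 library, for controls (0), 4 heme-albumin doses in µM and hemeHpx at 200 µM (Hpx); bars are the mean and SD of 10 libraries and the axes start at 0. The 400 µM libraries of Cmpk2 (7.04 to 11.3 CPM) lay below every control (11.8 to 20.9 CPM), while Isg20 was higher at 400 µM with 1 library at 7.73 CPM.

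Other lists of pathway genes were tested in the same fit. Of 38 tested genes in a list of other interferon-stimulated genes, 10 fell and 0 rose at 200 µM, and 9 fell and 1 (Adar, the RNA-editing enzyme) rose at 400 µM, with medians of -0.27 and -0.31. Of all genes, 6.6% were lower and 6.98% higher at 200 µM, and 14.3% and 14.7% at 400 µM. The same list gave 0 calls at 12.5 and 50 µM. Among 23 tested genes of the IFN-gamma response and MHC class I presentation, only the chemokine gene Cxcl10 was called at 200 µM, upward, and 2 rose and 3 fell at 400 µM. Ifngr1, a chain of the IFN-gamma receptor, fell by 0.20 at 200 µM (SE 0.0596, adjusted p = 0.0153, edgeR). It was not called at 400 µM (-0.12, adjusted p = 0.118, edgeR). The receptor gene Il10rb fell by 0.40 and 0.38 at these doses (adjusted p = 0.0296 and 0.0221, edgeR). Ifnar1, Ifnar2, Irf1 and Irf3 were not called at any dose.

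Microglia markers also fell. Of 12, 8 were lower at 200 µM (6.6% of all genes) and 4 at 400 µM (14.3% of all genes), among them P2ry12 (by 0.61, SE 0.135, adjusted p = 0.00118, and by 0.86, SE 0.136, adjusted p = 1.47e-06, edgeR), the purinergic receptor of resting microglia. Their summed level ran from 761 to 3506 CPM in controls, from 558 to 1587 CPM at 200 µM and from 617 to 2087 CPM at 400 µM, and none of the 12 was at 0 throughout. Of 7 astrocyte markers, 4 fell at 200 µM and 5 at 400 µM. Their part in the members' change was not tested, and in bulk tissue fewer cells of a type and less RNA per cell cannot be told apart.

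The effect of hemopexin was asked against controls and against the same dose of heme-albumin. Against controls, 0 of 38 members were called with hemeHpx, where 3.77% of all genes were called higher and 4.44% lower. At an unadjusted p under 0.05 there were 2 members (5.26%, against 31.3% of all genes), and DESeq2 called 1, the kinase gene Eif2ak2 (PKR, which halts translation on double-stranded RNA). Eif2ak2 had the smallest adjusted p in edgeR as well (0.052), with a log2 change of -0.29. The median member change was 0.08. With the code in the library name as a block, 2 members were called higher (Bst2 and Ifi27) and 1 lower (Eif2ak2). Over all genes that fit called 3706, in place of 1276. Leaving out the 3 libraries with the highest mean levels, hemeHpx replicate 8 among them, gave 4 calls: Bst2 at 0.59 and Eif2ak2, Dtx3l and Parp9 at -0.35, -0.26 and -0.18. Eif2ak2 was also called on leaving out control replicate 13, 15, 17, 20 or 21 or hemeHpx replicate 8, joined by Bst2 without control replicate 13 and by Dtx3l without hemeHpx replicate 8.

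Against heme-albumin at 200 µM, 7 of 38 members (18.4%) were higher with hemeHpx, against 13% of all genes, and 0 were lower, against 12.9%. The share called higher was thus not far from that of all genes. The median member change was 0.33 (0.01 over all genes), and 34 of the 38 estimates were positive. With the code in the library name as a block, 11 members were called higher and 0 lower. Over all genes that fit called 5131, in place of 4022. This comparison shares its heme-albumin libraries with the 200 µM comparison above.

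Dhx58 ran from 4.09 (median 5.99) to 9.14 CPM with hemeHpx, against 2.92 to 5.00 CPM with heme-albumin. Most hemeHpx libraries lay above the heme-albumin range, and the log2 difference was 0.66 (SE 0.183, adjusted p = 0.00718, edgeR). Bst2 ran from 20.1 (median 25.6) to 40.1 CPM with hemeHpx and from 9.02 (median 18.8) to 26 CPM with heme-albumin, a difference of 0.62 (SE 0.208, adjusted p = 0.0233, edgeR). Lgals3bp ran from 61.5 (median 84.1) to 147 CPM with hemeHpx and from 48.2 (median 62) to 96.0 CPM with heme-albumin, a difference of 0.59 (SE 0.186, adjusted p = 0.0171, edgeR). Stat2 ran from 41.2 (median 47) to 69.9 CPM with hemeHpx and from 35.3 (median 40.2) to 48.1 CPM with heme-albumin, a difference of 0.29 (SE 0.0992, adjusted p = 0.0289, edgeR). In these 4 genes the ranges overlapped, and the medians with hemeHpx were at or above those of the controls (5.39, 20.6, 81.9 and 45.2 CPM).

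The other 3 calls were of lower abundance or nearer the threshold. Oas1a, another oligoadenylate synthetase, ran from 2.51 (median 4.32) to 7.15 CPM with hemeHpx and from 1.52 (median 2.66) to 5.16 CPM with heme-albumin (0.73, SE 0.262, adjusted p = 0.0338, edgeR). Trim30a (0.50, SE 0.189, adjusted p = 0.0455) and Ifi27l2a (0.98, SE 0.381, adjusted p = 0.049, both edgeR) were near the threshold, and Ifi27l2a reached at most 0.862 CPM in the heme-albumin group and 2.16 CPM in the hemeHpx group. Dhx58 and Lgals3bp stayed called under each of 27 alternatives tried, while Bst2 lost its call in 3, Stat2 in 8, Oas1a in 9, Trim30a in 15 and Ifi27l2a in 17. Without the 3 libraries with the highest mean levels 3 members were called (Dhx58, Lgals3bp and Bst2). The count fell to between 2 and 4 when any of heme-albumin 200 µM replicates 1, 3, 4 and 8 or hemeHpx replicates 4, 7, 8 and 9 was left out.

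In the same comparison, where 13% of all genes were higher and 12.9% lower, the pathway genes called higher with hemeHpx were 8 of 38 other interferon-stimulated genes, with 1 lower (Pnpt1), and 7 of 23 IFN-gamma and MHC class I genes, with 0 lower, among them the immunoproteasome subunits Psmb8 and Psmb9. Of 12 microglia markers 11 were higher with hemeHpx, with a median of 0.94 and, for Cx3cr1, the fractalkine receptor of microglia, a difference of 1.23 (SE 0.336, adjusted p = 0.0067, edgeR). Their summed level ran from 1068 to 2884 CPM with hemeHpx and from 558 to 1587 CPM with heme-albumin. Of 7 markers of border-associated macrophages 4 were higher, and of 7 astrocyte markers 4. The part of these cells in the members' difference was not tested.

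**Figure D3:**
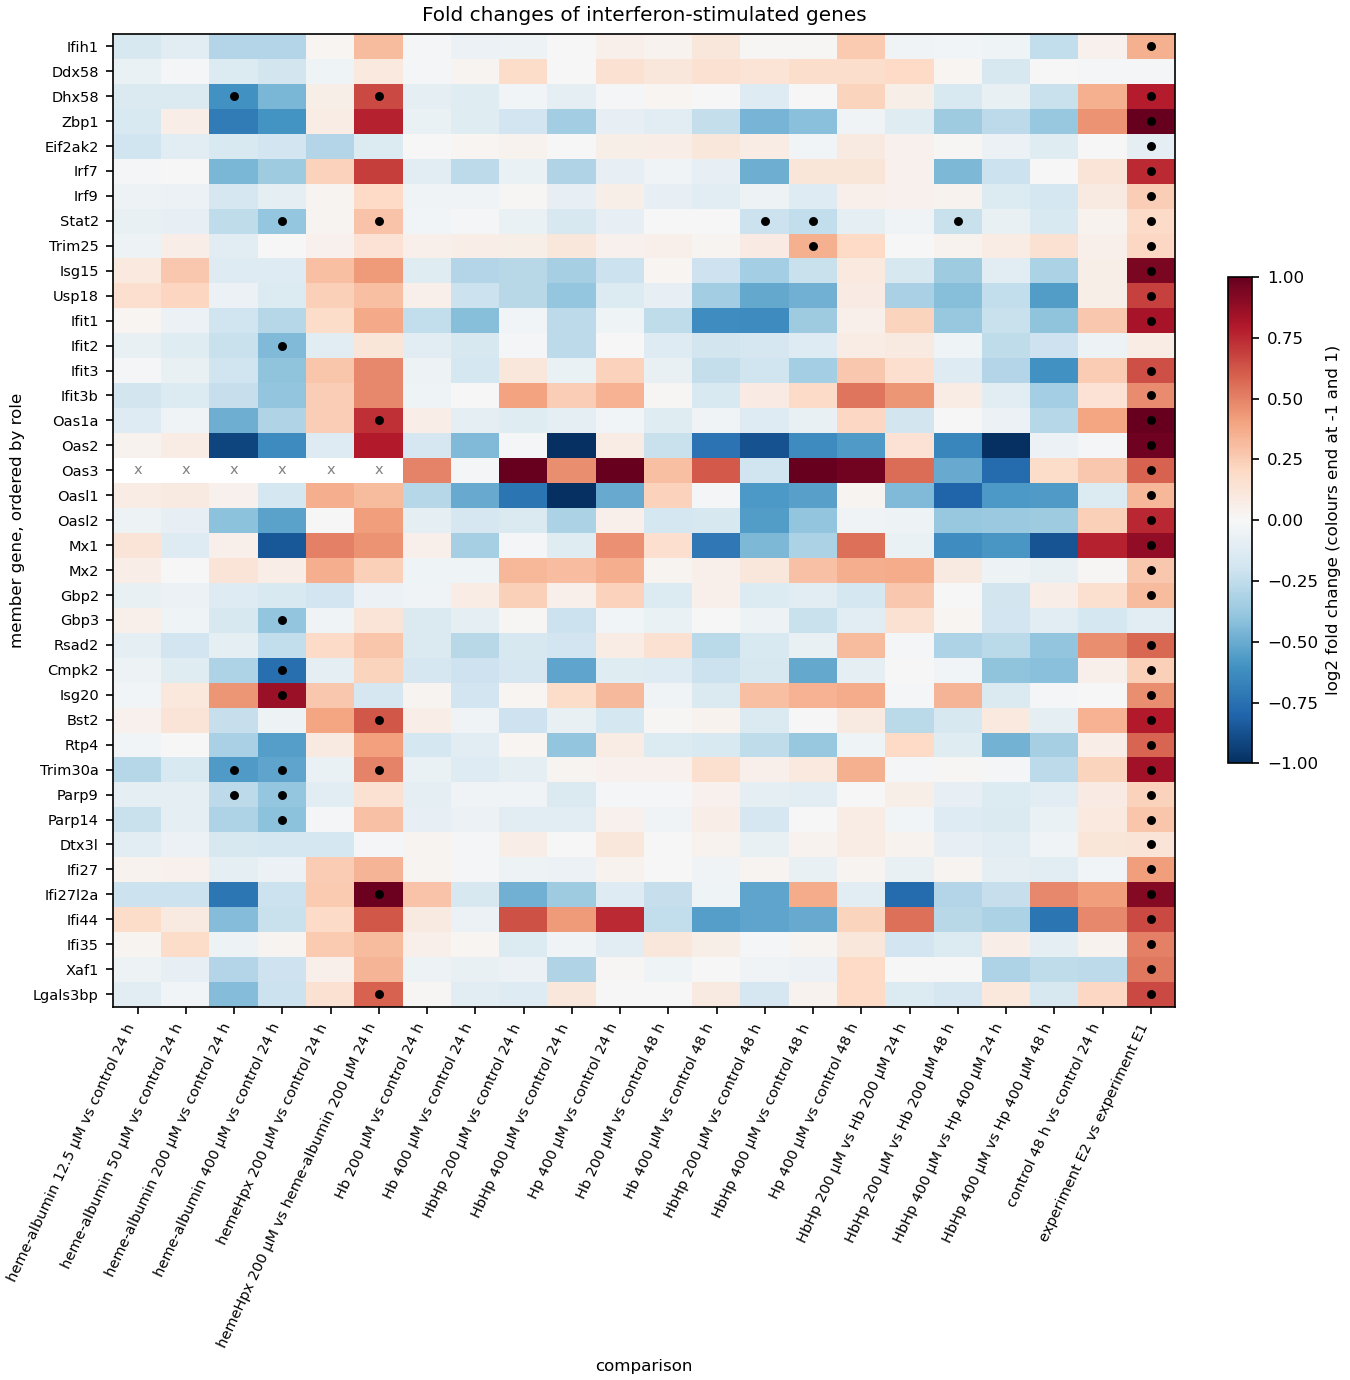
Log2 fold changes of the 39 members (rows, ordered by role) in the 22 comparisons (columns), with black dots where the adjusted p was under 0.05 and x where the gene did not pass the filter; colors end at -1 and 1. Dots are few under the hemoglobin and haptoglobin comparisons and fill the last column, E2 against E1, where 36 of 39 members were called.

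No member was called with free hemoglobin. At 24 h, 0 of 39 were called at 200 µM (all genes 0.0789% higher and 0.0182% lower) and 0 at 400 µM (0.474% and 0.0486%). At 48 h the counts were again 0 (0.279% and 0.0304% of all genes at 200 µM, 0.486% and 0.115% at 400 µM). At an unadjusted p under 0.05 there were 0, 1, 0 and 3 of 39 members in these 4 comparisons in that order, against 3.13%, 6.93%, 4.76% and 7.07% of all genes, and DESeq2 called 0 in each. The median member change lay between -0.10 and -0.01. Negative estimates numbered 26, 34, 20 and 24 of 39 in the same order.

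Haptoglobin alone gave 0 calls at 24 h (0.474% of all genes higher, 0.231% lower) and 0 at 48 h (4.88% and 5.88%). At an unadjusted p under 0.05 there were 2 members (5.13%) at 24 h and 5 (12.8%) at 48 h, against 12% and 26.5% of all genes, and DESeq2 called 0 at both times. Median changes were 0.04 and 0.09. Over all genes, Hp at 48 h called 1773 in this fit and 5 within E2 alone, which holds 2 controls at that time. The HbHp complex at 24 h gave 0 calls at 200 µM (1.66% of all genes higher, 0.273% lower) and 0 at 400 µM (3.1% and 2.06%). At an unadjusted p under 0.05 there were 2 members (5.13%) and 4 (10.3%), against 13.2% and 18.1% of all genes, and again DESeq2 called 0. The OAS-like gene Oasl1 came nearest at both doses, with adjusted p of 0.24 and 0.0745 (edgeR).

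HbHp at 48 h called 1 member at 200 µM and 2 at 400 µM. At 200 µM, 1 of 39 members (2.56%) was lower, against 4.85% of all genes, and 0 were higher, against 7.04%. At 400 µM, 1 was lower, against 4.56% of all genes, and 1 higher, against 7.39%. Both shares are below the background. The member that was lower was Stat2 at either dose. It ran from 33 (median 39.3) to 49.7 CPM in the 8 HbHp 200 µM libraries and read 36 to 43 CPM (median 39) in the 5 at 400 µM, while the 9 controls ran from 35.6 (median 40.5) to 47 CPM. The groups overlapped almost fully. The fitted log2 change, with experiment as a term, was -0.22 at 200 µM (SE 0.0651, adjusted p = 0.0186) and -0.24 at 400 µM (SE 0.0727, adjusted p = 0.016, both edgeR). All HbHp libraries are of E2, and Stat2 was 46.3 and 47 CPM in the 2 controls of E2 and 35.6 to 41 CPM in the 7 of E1. Without the experiment term Stat2 was not called at either dose, with estimates of -0.10 and -0.13 (adjusted p = 0.364 and 0.309, edgeR). Within E2 alone the estimates were -0.32 and -0.35 and also missed the threshold (adjusted p = 0.0799 and 0.0643, edgeR). At 200 µM it was also lost without HbHp replicate 1, and Oasl1 was called beside it without replicate 4. HbHp 200 µM against Hb 200 µM at 48 h also called Stat2, and only it, at -0.22 (SE 0.0642, adjusted p = 0.028, edgeR; 1.84% of all genes lower, 3.14% higher), and lost it within E2 alone, without the experiment term and without HbHp replicate 1, 2 or 5, while Oasl1 joined it without replicate 4.

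The member that was higher at 400 µM was Trim25. Its 5 libraries ran from 68.4 (median 81.9) to 103 CPM and the 9 controls from 45.4 (median 56.6) to 75.3 CPM, with the 2 controls of E2 at 71.8 and 75.3 CPM. The log2 change was 0.35 (SE 0.106, adjusted p = 0.0162, edgeR). Without the experiment term Trim25 was called at 0.48, and within E2 alone it was not, at 0.19 (adjusted p = 0.519, edgeR). Leaving out HbHp 400 µM replicate 2 raised the members called to 4, and leaving out replicate 3 or 4 left 1. HbHp 200 µM against Hb 200 µM at 24 h called 0 members (0.413% of all genes higher, 0.194% lower), with 3 (7.69%) at an unadjusted p under 0.05, where 12.3% of all genes were. HbHp 400 µM against Hp 400 µM called 0 at 24 h (0.522% and 0.0971% of all genes higher and lower) and 0 at 48 h (1.03% and 0.413%), with 35 of 39 estimates negative at each time and medians of -0.16 and -0.17. At an unadjusted p under 0.05 there were 6 members (15.4%, against 8.98% of all genes) and 4 (10.3%, against 15.9%). DESeq2 called 0 in these 3 comparisons. Leaving out HbHp 400 µM replicate 4 at 24 h gave 1 call against Hp (Cmpk2) and 2 against controls (Cmpk2 and Gbp3).

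**Figure D4:**
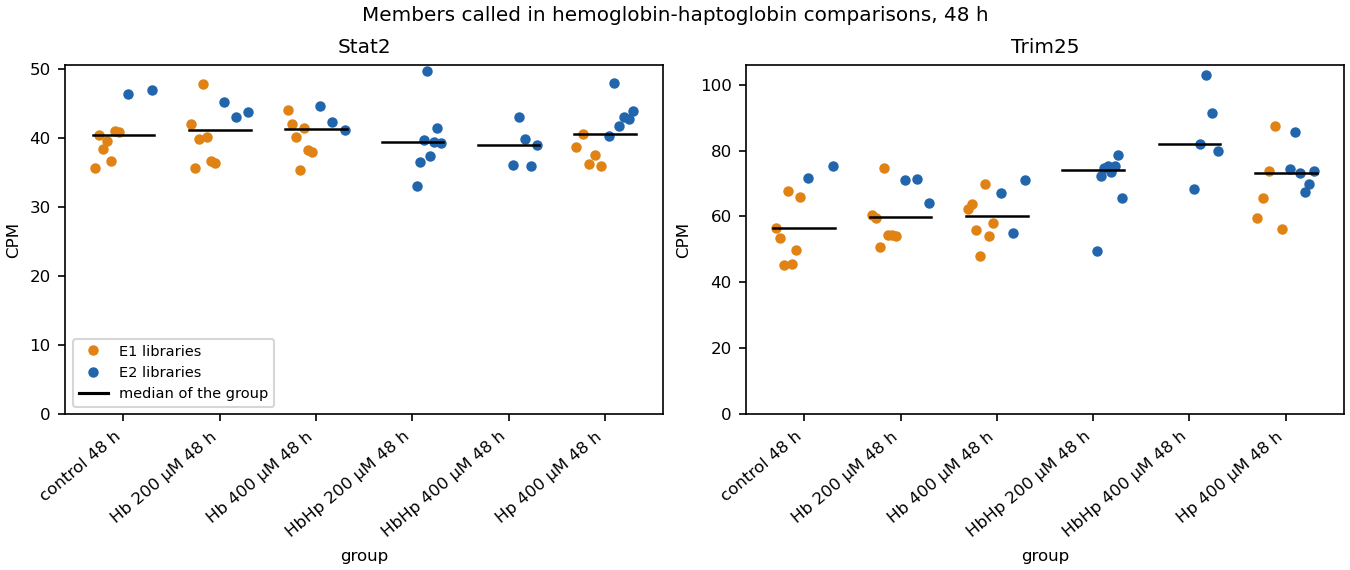
CPM of Stat2 and Trim25 in each 48 h library of batches 2 and 3, by group, with E1 libraries orange, E2 libraries blue and the group median as a bar; the axes start at 0. Stat2 medians lay between 39 and 41.3 CPM in all 6 groups, and Trim25 had its highest median, 81.9 CPM, with HbHp at 400 µM.

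Time in culture was compared in untreated slices. No member was called between 48 and 24 h (1.66% of all genes higher, 2.85% lower; 0 members by DESeq2), and 2 (5.13%) had an unadjusted p under 0.05, against 19.6% of all genes. The median member difference was 0.09. The change of a treatment's effect from 24 to 48 h was also tested as an interaction: 0 of 39 members were called for Hb, HbHp or Hp at any dose (0 at an unadjusted p under 0.05), the smallest adjusted p being 0.496, for Stat2 with HbHp at 200 µM (edgeR). Of all genes, 0 to 0.0304% were called in these interactions.

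The clearest difference among the members lay between the experiments. With group and batch as terms, 35 of 39 members (89.7%) were higher in E2 than in E1, against 36.1% of all genes, and 1 (2.56%) was lower, against 31.9%. The median member difference was 0.52 on the log2 scale, against 0.02 over all genes. Only E1 and E2 were compared, so p-values of this contrast measure the spread between libraries and not between experiments. Every role took part: 3 of 5 RNA sensors, all 4 signaling and transcription factors, Isg15 and Usp18, 3 of 4 IFIT genes, all 5 OAS family members, both Mx genes, Gbp2, all 6 further antiviral effectors, Parp9, Parp14 and Dtx3l, both IFI27 family members and the last 4 (Ifi44, Ifi35, Xaf1 and Lgals3bp). Ddx58 (RIG-I), Ifit2 and Gbp3 were not called, with differences of -0.01, 0.08 and -0.11. Eif2ak2 was lower by a small amount, -0.09 (SE 0.0331, adjusted p = 0.0175, edgeR), and its direction turned in the Hp libraries taken alone.

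Ifi27 had the smallest adjusted p. It ran from 36.3 (median 46.1) to 63.3 CPM in the 53 E1 libraries and from 49.3 (median 61.1) to 88.7 CPM in the 54 of E2, a difference of 0.42 (SE 0.0384, adjusted p = 5.58e-17, edgeR). Oas1a ran from 1.49 (median 3.62) to 6.93 CPM in E1 and from 3.92 (median 7.67) to 14.6 CPM in E2, a difference of 1.05 (SE 0.11, adjusted p = 2.37e-14, edgeR). Bst2 ran from 11.4 (median 19.6) to 37.3 CPM and from 19.6 (median 34.9) to 58.3 CPM, a difference of 0.79 (SE 0.0844, adjusted p = 4.41e-14, edgeR). In each of the 3 the ranges overlapped, with the lowest E2 library at or above the E1 median. Xaf1 (a partner of the inhibitor of apoptosis XIAP) and Irf9, the DNA-binding subunit of ISGF3, differed by 0.52 (SE 0.0564, adjusted p = 7.54e-14) and 0.25 (SE 0.0281, adjusted p = 6.06e-13, both edgeR). Xaf1 ran from 5.24 (median 8.95) to 12 CPM in E1 and from 8.82 (median 11.4) to 18.8 CPM in E2, and Irf9 from 19.4 (median 23.8) to 28.3 CPM and from 23.8 (median 28.8) to 34.7 CPM. Among the larger differences were those of Zbp1, the Z-nucleic acid sensor, at 1.13, and of the ubiquitin-like modifier Isg15, at 0.94 (median 1.62 CPM in E1 and 2.79 CPM in E2).

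The same was seen in the Hp libraries and in the controls taken alone. Both are part of the fit above, so they are not a second observation. All Hp libraries are of batch 3, and in these 23 alone, with time as a term, 30 of 37 tested members were higher in E2 and 0 lower, against 25% and 24.4% of all genes, with a median of 0.70. Oas1a was 1.70 to 3.76 CPM in the 6 Hp libraries of E1 at 24 h and 5.28 to 10.5 CPM in the 6 of E2, and the groups did not overlap. For 15 of 39 members at 24 h and 12 of 39 at 48 h every E2 library with Hp lay above every E1 library, against 8.91% and 8.94% of all genes, and for 0 members below, against 8.47% and 8.05%. In the 19 controls alone, with time and batch as terms, 22 of 38 tested members were higher and 2 lower (Eif2ak2 and Gbp3, at -0.29 and -0.37), against 24.8% and 24.4% of all genes, with a median of 0.45. Zbp1, at 1.54 with Hp and 1.07 in controls, was among the most different in both.

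**Figure D5:**
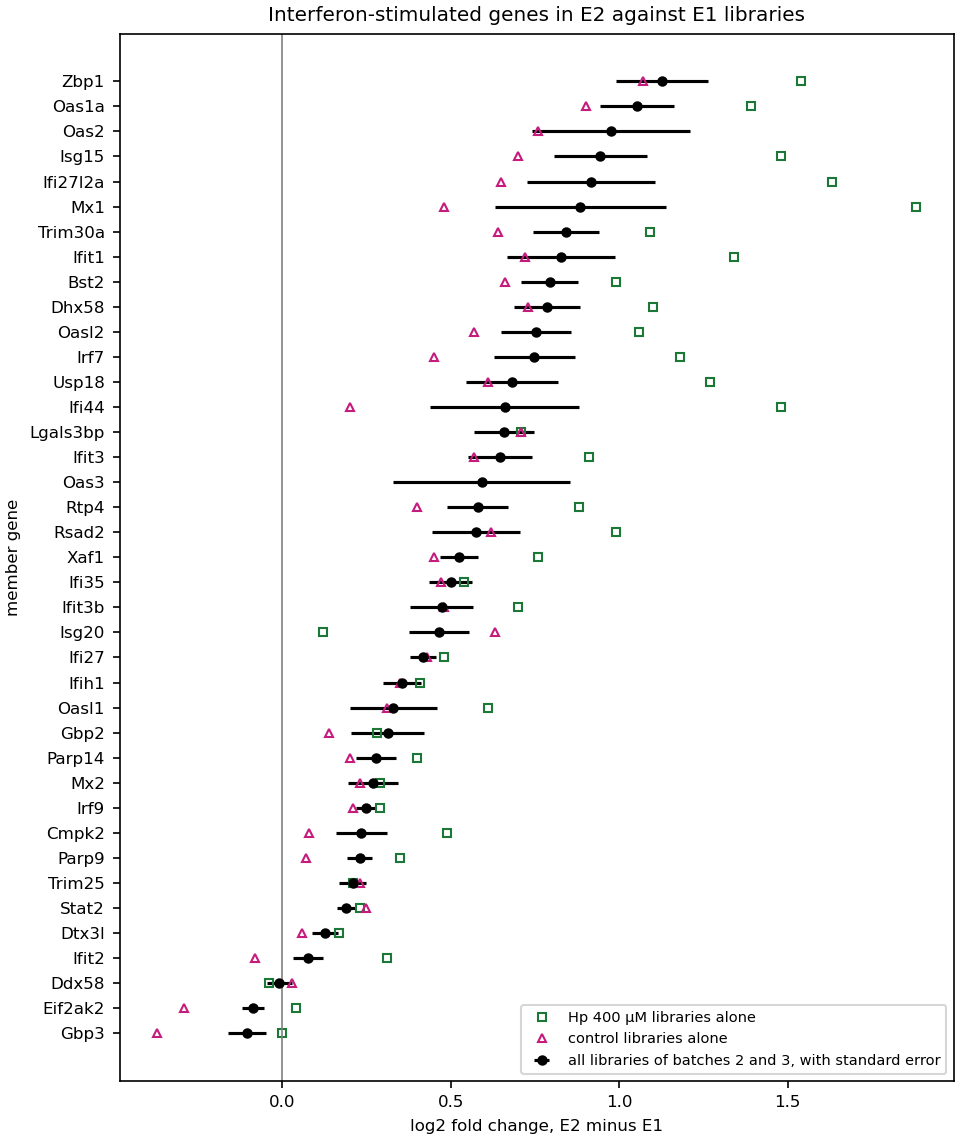
Log2 fold change of each of the 39 members in E2 against E1, with black points and standard errors for all libraries, green squares for the 23 Hp libraries alone and pink triangles for the 19 controls alone. Estimates from all libraries ran from -0.11 for Gbp3 to 1.13 for Zbp1, and most members lay to the right of 0 in all 3 sets.

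Upstream and neighboring genes were read against the 36.1% of all genes higher and 31.9% lower in E2. Ifnar2 was higher in E2 by 0.44 (SE 0.0551, adjusted p = 2.38e-11), Ifngr2 by 0.33 (SE 0.0421, adjusted p = 7.78e-11) and Ifngr1 by 0.26 (SE 0.0404, adjusted p = 1.33e-08, all edgeR). Ifnar1, Irf1 and Irf3 were not called. Of 39 other interferon-stimulated genes tested, 30 were higher and 3 lower (Pnpt1, Ifitm3 and Parp11), of 23 IFN-gamma and MHC class I genes 18 and 2, and of 17 genes of interferon induction 13 and 1 (Tlr3). All 12 microglia markers were higher in E2, with a median of 1.08, above the members' 0.52, and a summed level of 1478 to 6629 CPM (median 3743) against 522 to 4931 CPM (median 1813) in E1. Of 8 endothelial markers 6 were higher and 1 lower, of 7 oligodendrocyte markers 6 and 1, of 9 neuron markers 5 and 2, and of 7 astrocyte markers 3 and 2, the last of these near the shares of all genes. The part of any of these in the members' difference was not tested, and what E1 and E2 stand for cannot be told apart from whatever else differed between them.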

How the data were processed

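RNA was extracted with the Lexogen SPLIT kit, and libraries were made with TruSeq mRNA and sequenced on Illumina NovaSeq instruments. The authors deposited 1 table of raw read counts per library, made with featureCounts on GRCm39 per the labels' processing notes, with no version given. Aligner, annotation release and strand setting are not given in the sources used here. Gene symbols were taken from a table of Ensembl IDs, and exonic lengths from a GRCm38 annotation. Members and lists were chosen with earlier results of these data known.

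Libraries were grouped by treatment label and title. Of 188 libraries, 167 had a group and 21 did not. Batch 1 (60 libraries, 15554 genes) was fitted with group alone, and batches 2 and 3 (107 libraries, 16473 genes) with batch, experiment and group, in edgeR 4.0.16 (TMM scaling, filterByExpr with a smallest count of 10, quasi-likelihood F test, Benjamini-Hochberg adjustment over all genes, threshold 0.05). CPM are TMM-scaled. Mean levels use log2(CPM + 0.5). DESeq2 1.42.0, RLE scaling, no filter, a replicate block, other terms and left-out libraries were alternatives. Depth per library, 11038484 to 54174784 counts, sets the counting error of low genes.

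With values by library the text gives, per comparison, up to 5 called members in each direction with the smallest adjusted p, the 5 most and 3 least abundant, members not past the filter, the libraries highest on the mean level, and fixed pathway genes; other genes named were chosen after their values were seen. On data simulated from the batch 1 counts for heme-albumin at 200 µM (15486 genes, 100 changed by 0.5 and 100 by 1 on the log2 scale), 64% and 89% of the changed genes were called. The changed genes were drawn at random from all tested genes. Their median biological coefficient of variation was 0.139 over all genes, against 0.285 for the members, so these shares do not apply to the members. No 2 libraries of a group agreed within sampling noise: the smallest chi-square per gene was 3.48 over 270 pairs in batch 1 and 5.73 over 360 pairs in batches 2 and 3. Results for 1 pathway gene are not reported here.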

Additional observations from a re-analysis of the deposited data

Results flagged for a closer look

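In groups of 4 to 10 libraries, 54 sets of values were searched for a library whose gap to its nearest neighbor filled a large part of the range of the group. Chance meets this rule in about 1 of 20 sets, and 4 met it. The mean log2 level of the members was 4.05 in replicate 7 at 50 µM heme-albumin, where the next library reached 3.32. Log2(CPM + 0.5) of Cmpk2 was 4.42 in control replicate 13 of batch 1, with the next at 3.92. In replicate 9 at 400 µM heme-albumin, Ifit2 was 4.91, with the next at 4.58, and Isg20 was 3.04, with the next at 1.99.

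The 21 libraries without a group had not entered any comparison. Their mean log2 level of the members ran from 2.94 to 4.05 with a median of 3.32. The 14 of them that belong to E1 had a median of 3.27 (2.94 to 3.47), where the 14 E1 controls of both times had a median of 2.85 (2.53 to 3.26). The 7 of E2 had a median of 3.52 (3.15 to 4.05), where the 5 E2 controls had a median of 3.34 (3.02 to 3.45). All 14 libraries of E1 without a group are of batch 3, while most E1 controls are of batch 2. On the scaling of the main fit, the E1 controls of batch 3 read 3.04 (24 h, replicate 10) and 3.18 (48 h, replicate 8). Both lie within the range of those 14. Batch and agent cannot be told apart here, the libraries carry conflicting labels, and the difference was not tested.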

How the results depend on the processing

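Of 150 recomputed counts of called members, apart from those that leave out a single library, 131 were within 1.5 times the reported count, and 11 of 22 comparisons had 0 calls in each of them. Without the 3 libraries with the highest mean levels (control replicate 13, 50 µM heme-albumin replicate 7 and hemeHpx replicate 8, an alternative chosen after seeing the data) the count was 1 for heme-albumin 200 µM (reported 3), 4 for hemeHpx against control (reported 0) and 3 for hemeHpx against heme-albumin (reported 7). For hemeHpx against control it was 1 with DESeq2, 1 with RLE scaling and 1 in 30 libraries alone. With the library-name code as a replicate block it was 3 for hemeHpx against control (Bst2 at 0.49 and Ifi27 at 0.29 higher, Eif2ak2 at -0.28 lower), 11 for hemeHpx against heme-albumin and 1 for HbHp 400 µM at 24 h, and the block moved no other count by over 1.5 times. The labels do not say what the codes mark, so they were not taken as pairs in the main fit. Several codes of batch 1 occur in every group. Of same-code pairs, 103 of 175 in batch 1 and 141 of 300 in batches 2 and 3 deviated together with a correlation over 0.1. This cut does not show that pairing is absent. The median correlation of same-code pairs was still higher than that of other pairs, at 0.28 against -0.04 in batch 1. In batches 2 and 3 it was 0.05 against -0.01. Without the batch term the count was 1 for HbHp 400 µM at 24 h and 3 for HbHp 200 µM at 48 h (reported 0 and 1). Without the experiment term it was 0 for HbHp 200 µM and 1 for HbHp 400 µM at 48 h, 1 for Hp at 48 h, 1 for HbHp against Hb 200 µM at 24 h and 0 at 48 h. Within E2 alone, which holds 2 or 3 controls per time, it was 0 for HbHp 200 µM, HbHp 400 µM and HbHp against Hb 200 µM at 48 h. In the Hp libraries alone Eif2ak2 was 0.04 in place of -0.09 between experiments. The cause was not tested.

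With a single library left out, counts ran from 1 to 4 for heme-albumin 200 µM, 7 to 10 for 400 µM, 0 to 2 for hemeHpx against control, 2 to 10 for hemeHpx against heme-albumin, 0 to 2 for HbHp 200 µM and 1 to 4 for HbHp 400 µM at 48 h, 0 to 2 for HbHp 400 µM at 24 h, 0 to 2 for HbHp against Hb 200 µM at 48 h and 0 to 1 for HbHp against Hp 400 µM at 24 h. Over all genes, hemeHpx against control called 1276, against 277 with no filter, 110 once GC content and transcript length were corrected for, 1926 with DESeq2, 3706 with the block and 3637 without the 3 highest libraries. HbHp 200 µM at 48 h called 1959, against 4066 without the experiment term and 646 within E2 alone. Hp at 48 h called 1773, against 1779 without the experiment term and 5 within E2 alone. Counting error limits members under about 1 CPM (Oas2, Oas3, Ifi44, Mx1 and Ifi27l2a), whose estimates had the largest standard errors.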

Other observations

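Among pathway genes outside the set, a few differed from controls in the hemoglobin and haptoglobin groups of batches 2 and 3 (edgeR, adjusted over 16473 genes). Tbk1, the kinase that activates IRF3, was higher with Hb at 400 µM by 0.17 at 24 h (SE 0.0423, adjusted p = 0.0362) and at 48 h (SE 0.0435, adjusted p = 0.0355), with HbHp at 400 µM at 24 h by 0.25 (SE 0.0622, adjusted p = 0.00525), and at 48 h with HbHp at 200 and 400 µM and with Hp by 0.28, 0.36 and 0.20. Cd274, which encodes the inhibitory ligand PD-L1, was higher with HbHp at 400 µM at 24 h by 0.85 (SE 0.247, adjusted p = 0.0232), and at 48 h with HbHp at 200 µM by 0.81 (SE 0.216, adjusted p = 0.00716), at 400 µM by 1.33 (SE 0.236, adjusted p = 2.20e-05) and with Hp alone by 0.99 (SE 0.2, adjusted p = 0.00067). Slfn9, a Schlafen family gene, was lower with HbHp at 24 h, by 0.39 at 200 µM and 0.52 at 400 µM, and at 48 h with HbHp at 200 µM by 0.38, and Socs3, a feedback inhibitor of JAK signaling, was lower with HbHp 200 µM at 48 h by 0.47 (SE 0.132, adjusted p = 0.0113). These comparisons share their controls within a time, and the genes named here were chosen after their values were seen. All HbHp libraries are of E2, which holds 2 or 3 controls per time. Over all genes, Hp at 48 h called 1773 in this fit and 5 within E2 alone. Values of the genes named here within E2 alone are not given. Of 12 microglia markers, P2ry12 alone was called in the comparisons of these treatments with controls, lower by 0.93 with HbHp 400 µM at 48 h (SE 0.21, adjusted p = 0.000966).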
